A study of Mus musculus with 31 samples.

Results

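The proteasome subunit and assembly genes were read on the 31 arrays of liver and epididymal adipose tissue from mice kept in intermittent hypoxia (IH) or in normoxic air (NO). Members were all genes whose symbol in the array's annotation begins with Psma to Psmg followed by a digit, with the exception of the immunoproteasome genes Psmb8 and Psmb9, and no measured value entered this rule. The rule took 43 of 16593 genes, read by 65 of the 23978 probes with 1 gene symbol, and 18 of the 43 had several probes. It also took Psmc3ip, which acts in meiotic recombination, and Psme3ip1, which binds the activator Psme3. Neither is a subunit of the proteasome. The genes Psma8, Psmb11, Psmd3, Psmf1 and Psmg4 were not analysed here.

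Male C57BL/6JRj mice of 16 weeks were exposed for 14 days. Each IH cycle of 60 s had 30 s at 5% oxygen and 30 s at 21% oxygen, for 8 h per day, and NO mice had normoxic air. The groups were liver IH (n = 7), liver NO (n = 8), adipose IH (n = 8) and adipose NO (n = 8), with 1 mouse per array. A whole tissue holds many cell types, so fewer cells of a type and less RNA per cell cannot be told apart.

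The 26S proteasome is the barrel-shaped protease that degrades proteins tagged with ubiquitin. Its 20S core stacks rings of alpha subunits, which gate the entrance, around rings of beta subunits, of which Psmb5, Psmb6 and Psmb7 carry the catalytic sites. The 19S cap has a base, whose Psmc ATPases unfold the substrate, and a lid, in which Psmd14 removes the ubiquitin chain. Psmg chaperones assemble the core and Psmd5, Psmd9 and Psmd10 the base, while Psme1 to Psme4 form caps that open the core without the 19S particle. Liver and adipose tissue both depend on this protease for the turnover of proteins, and transcription of its genes is known to rise together through Nfe2l1 when proteasome activity falls.

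Between 8712 and 9293 probes were detected on the IH liver arrays and between 8359 and 9158 on the NO liver arrays, against 10775 to 12340 on the IH adipose arrays and 10261 to 11932 on the NO adipose arrays. Within a tissue no chip held both exposures, so chip and exposure cannot be told apart. Chip 1 held the 8 NO livers, and chips 2 and 3 held 2 and 5 IH livers. Chips 3 and 4 held 3 and 5 NO adipose arrays, and chips 5 and 6 held 5 and 3 IH adipose arrays. Hepatocyte markers (8 on the array) summed to between 127648 and 142335 units of deposited intensity in IH livers and between 118874 and 141740.3 in NO livers. Adipocyte markers (7 on the array, all detected on each adipose array) summed to between 22163 and 66886 in IH adipose tissue and between 52978 and 79954 in NO adipose tissue. In 3 adipose arrays, IH 16, IH 19 and NO 4, at least 2 of 4 markers of epididymal epithelium were detected (3, 4 and 2 of 4). Adam7, a protein of the epididymal duct, had a log2 intensity of 14.36, 14.95 and 12.05 on these arrays, and between 4.32 and 5.42 on the other 13. These libraries stand apart from the rest of the adipose tissue, and the counts of calls are given with and without them.

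Promoter sequences were taken from RefSeq (GRCm38.p6) for the 37 members with an entry, from 250 bases before to 50 bases after the start of the gene. No entry was used for Psmb1, Psmb2, Psmb7, Psmc3, Psmd7 and Psmg2. The sequences below belong to the members on which the results turn. They are the chaperones Psmg3 and Psmg1, which differed in opposite directions in the tissues, and the lid genes Psmd14 and Psmd6. These lid genes had the lowest adipose fold changes by the brightest probe. The last is Psmb5, the catalytic gene called in adipose tissue with 1 probe read per gene, here its only probe. Capitals mark matches, on either strand, to the antioxidant response element core TGACNNNGC, the nuclear respiratory factor 1 core GCGCATGC, the CCAAT box and the E-box CACGTG. Bases run 5′ to 3′ on the strand of the gene.
Psmg3 (chr5:139826845-139827144, minus strand): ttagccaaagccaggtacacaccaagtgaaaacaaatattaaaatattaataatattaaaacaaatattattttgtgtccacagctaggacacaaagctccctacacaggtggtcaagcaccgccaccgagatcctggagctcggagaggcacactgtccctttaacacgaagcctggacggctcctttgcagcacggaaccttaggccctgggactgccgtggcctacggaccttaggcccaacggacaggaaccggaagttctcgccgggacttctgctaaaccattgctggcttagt
Psmg1 (chr16:95990911-95991210, minus strand): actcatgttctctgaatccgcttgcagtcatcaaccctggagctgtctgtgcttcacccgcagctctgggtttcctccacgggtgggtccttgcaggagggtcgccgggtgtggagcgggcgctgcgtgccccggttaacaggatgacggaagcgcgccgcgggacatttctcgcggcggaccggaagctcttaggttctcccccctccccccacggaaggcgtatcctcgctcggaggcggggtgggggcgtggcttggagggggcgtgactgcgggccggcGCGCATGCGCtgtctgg
Psmd14 (chr2:61711444-61711743, plus strand): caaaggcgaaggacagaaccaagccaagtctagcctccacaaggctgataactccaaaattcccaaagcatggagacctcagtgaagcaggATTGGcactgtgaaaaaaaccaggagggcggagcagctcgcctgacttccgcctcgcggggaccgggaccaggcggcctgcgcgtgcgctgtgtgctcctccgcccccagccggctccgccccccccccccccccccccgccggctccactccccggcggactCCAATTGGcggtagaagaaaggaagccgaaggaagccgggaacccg
Psmd6 (chr14:14120896-14121195, minus strand): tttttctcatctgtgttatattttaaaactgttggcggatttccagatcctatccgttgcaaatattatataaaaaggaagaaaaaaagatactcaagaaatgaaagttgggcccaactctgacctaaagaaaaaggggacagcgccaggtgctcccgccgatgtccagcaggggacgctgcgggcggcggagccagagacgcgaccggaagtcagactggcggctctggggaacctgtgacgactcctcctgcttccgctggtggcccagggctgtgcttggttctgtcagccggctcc
Psmb5 (chr14:54617946-54618245, minus strand): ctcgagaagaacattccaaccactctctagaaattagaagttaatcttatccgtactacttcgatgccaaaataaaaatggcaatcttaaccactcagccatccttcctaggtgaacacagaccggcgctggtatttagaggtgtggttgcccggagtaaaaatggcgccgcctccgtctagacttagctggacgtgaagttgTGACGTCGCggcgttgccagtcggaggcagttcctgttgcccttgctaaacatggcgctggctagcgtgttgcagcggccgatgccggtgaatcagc
Psmg1 held the nuclear respiratory factor 1 core on both strands in 1 overlapping stretch after its start site. Psmd14 held CCAAT boxes upstream and just after its start, the last a pair on opposite strands that overlap. Psmb5 held the antioxidant response element core, and neither Psmg3 nor Psmd6 had a match to any of the 4 motifs.

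Over all 37 member promoters, the antioxidant response element core was found in 6 (16.2%), against 12.5% of 27025 promoters of the same length. The nuclear respiratory factor 1 core was found in 3 (8.11%, against 2.8% of all promoters), the genes being Psma2, Psmc5 and Psmg1. A CCAAT box was found in 13 (35.1%, against 37.9%) and an E-box in 4 (10.8%, against 7.24%). The median GC content was 57.3% in the member promoters and 52.7% in all. A match to letters is a description and shows no binding.

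In liver, 38 members passed the filter on detection and could be tested. Values are log2 intensities after background correction and quantile normalization, and a call is an adjusted p under 0.05 from limma over all genes tested. After IH, 0 members were called higher and 1 lower, against a background of 0.45% of 6443 genes called higher and 0.481% called lower (0.931% in either direction). Before adjustment, 4 of 38 members had a p of 0.01 or less, against 6.24% of all genes. A p under 0.05 was found for 9 of 38 members and for 1090 of 6443 genes. The latter is the background for later liver counts at an unadjusted p under 0.05. The median log2 fold change of the 38 was -0.06, against -0.01 over all genes, and 13 of 38 were above 0 (47.3% of all genes). The mean log2 intensity of the members averaged 10.43 ± 0.04 in IH livers (SD, n = 7) and 10.48 ± 0.05 in NO livers (SD, n = 8).

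**Figure D1:**
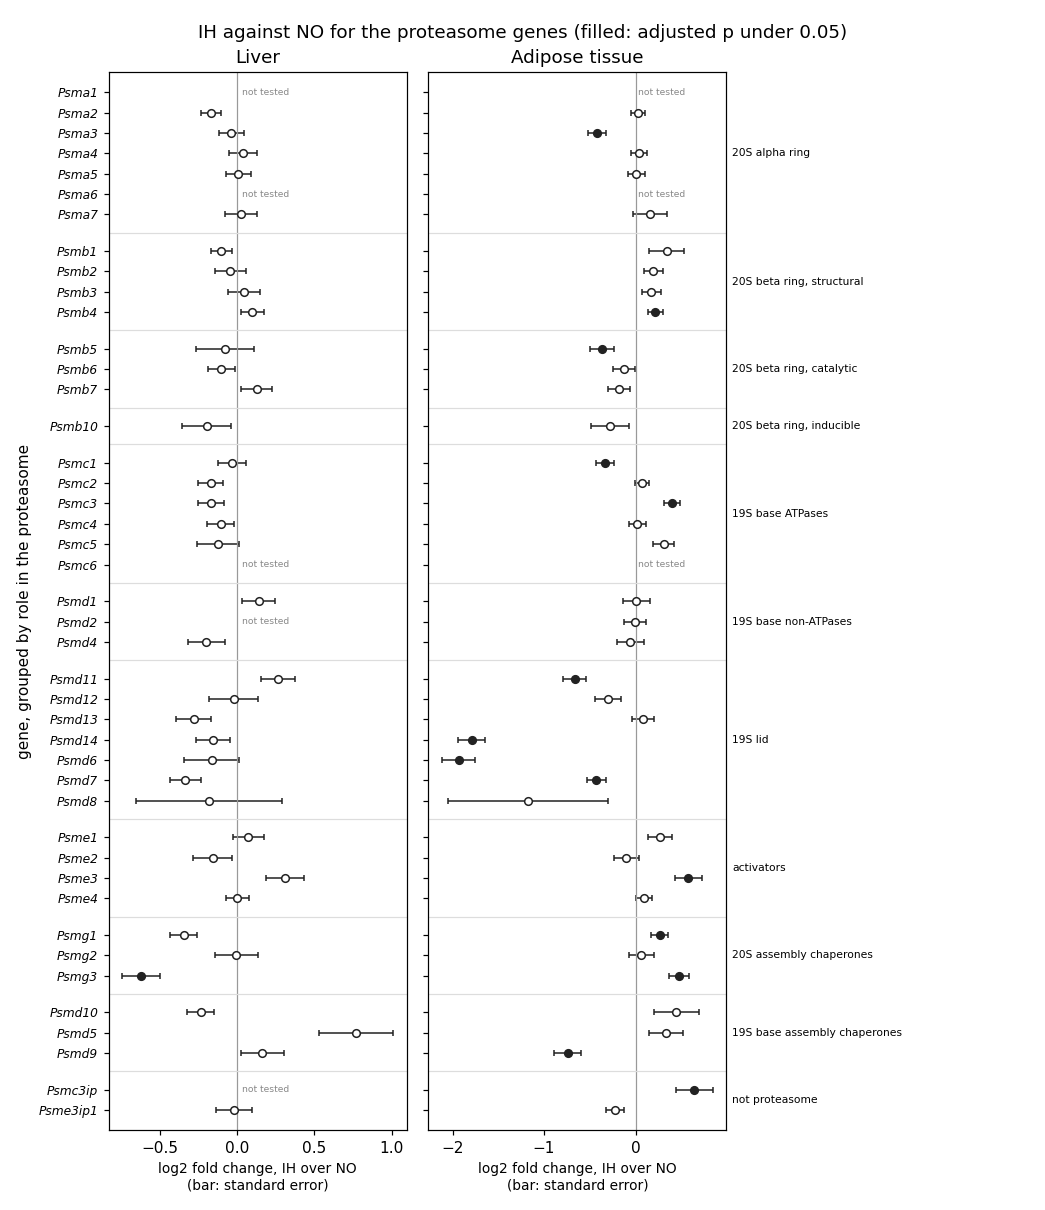
Log2 fold change of IH over NO for each proteasome gene in liver (left) and adipose tissue (right), grouped by role, with the standard error as a bar and filled points for an adjusted p under 0.05. The horizontal scales differ: liver values lie between -0.62 and 0.77, and adipose values between -1.94 and 0.64.

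The member called in liver was Psmg3, a chaperone that assembles the alpha ring of the core. Its lowest, median and highest log2 intensity was 8.09, 8.41 and 8.86 in IH livers, against 8.79, 9.06 and 9.46 in NO livers. All 7 IH arrays lay below the NO mean, and the groups overlapped at their edge. It fell by 0.62 on the log2 scale (standard error 0.12, adjusted p = 0.0342 from limma, exact permutation p = 0.000466 over 6435 splits). Psmg1, a partner chaperone of the same ring, had 8.31, 8.66 and 8.82 in IH livers, against 8.87, 8.99 and 9.22 in NO livers. Every IH array lay below every NO array, as for 0.295% of all genes, while 0.186% had every IH array above every NO array, none of them a member. Its log2 fold change was -0.35 (standard error 0.09) and its adjusted p was 0.0691. Psmg2, which pairs with Psmg1, averaged 9.57 ± 0.32 in IH livers and 9.57 ± 0.22 in NO livers (SD, n = 7 and 8).

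The call on Psmg3 in liver depended on single arrays: its adjusted p was between 0.0501 and 0.0757 without any one of IH 17, 18, 19 and 20 or NO 3, 4, 5, 6 and 8. It was 0.057 without the 2 IH arrays of chip 2 and 0.645 without the 5 of chip 3, with log2 fold changes of -0.62 and -0.64. Leaving out chip 3 kept only the 2 IH arrays of chip 2.

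In the 19S lid, 6 of 7 genes lay below 0 in IH livers by the brightest probe and 0 were called (3 at an unadjusted p under 0.05). The other kept probes of Psmd6, Psmd7, Psmd11 and Psmd12 had the opposite sign (log2 fold changes of 0.16, 0.10, -0.10 and 0.14). Psmd7, which pairs with the deubiquitinase Psmd14, had a lowest, median and highest value of 10.75, 10.87 and 10.94 in IH livers, against 10.93, 11.16 and 11.69 in NO livers. Its log2 fold change was -0.34 (standard error 0.1, adjusted p = 0.116), and the groups met at their edge. Psmd11, a scaffold of the lid, was the one above 0, with 9.25, 9.41 and 9.54 in IH livers against 8.51, 9.23 and 9.34 in NO livers (log2 fold change 0.26, adjusted p = 0.245). All 7 IH values of Psmd11 exceeded the NO mean, and 1 NO array lay far below the others. By the brightest probe, all 5 ATPases of the base had negative log2 fold changes, from -0.17 to -0.03. Of these, 0 were called and 0 had an unadjusted p under 0.05. The other kept probe of Psmc5 was at 0.04.

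The chaperones of the base differed in direction, with 0 of 3 called (2 at an unadjusted p under 0.05). Psmd5, which holds ATPases before the cap is complete, had 5.74, 6.66 and 6.8 in IH livers, against 4.82, 5.59 and 6.68 in NO livers. Its probe was detected on 6 of 7 IH arrays and on 1 of 8 NO arrays, and the difference of 0.77 (standard error 0.24) had an adjusted p of 0.13. Psmd10, known as the oncoprotein gankyrin, averaged 9.34 ± 0.09 in IH livers and 9.58 ± 0.17 in NO livers (SD, n = 7 and 8; log2 fold change -0.24, adjusted p = 0.184). Its other kept probes had log2 fold changes of 0.26 and 0.08. Psmd9 averaged 7.13 ± 0.2 in IH livers and 6.97 ± 0.32 in NO livers (adjusted p = 0.598).

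Among the genes of the core, 0 of 13 tested were called in liver by the brightest probe (1, Psma2, at an unadjusted p under 0.05). Other kept probes of Psmb7, Psma7 and Psmb10 had log2 fold changes of 0.44, 0.23 and -0.29. Their unadjusted p from limma was 0.0107, 0.0131 and 0.0498, and their adjusted p over all probes 0.156, 0.168 and 0.286. The third probe of Psmb7 was at 0.02, and the second kept probe of Psmb2 at -0.03. Psmb5, the chymotrypsin-like site, averaged 8.28 ± 0.41 in IH livers and 8.36 ± 0.36 in NO livers. For Psmb6, the caspase-like site, the means were 12.05 ± 0.14 in IH livers and 12.15 ± 0.14 in NO livers, and for Psmb7, the trypsin-like site, 11.42 ± 0.18 in IH livers and 11.3 ± 0.17 in NO livers (SD, n = 7 and 8). The adjusted p was 0.877, 0.59 and 0.561. Psmb10, the inducible partner of Psmb7, had a log2 fold change of -0.20 (with a standard error of 0.16 and adjusted p = 0.57). Psma2, in the alpha ring, had a log2 fold change of -0.17 with all 7 IH arrays under the NO mean (adjusted p = 0.204).

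Of the activators, 0 of 4 were called in liver (1, Psme3, at an unadjusted p under 0.05). Psme3, which caps the core in the nucleus, averaged 9.47 ± 0.14 in IH livers and 9.16 ± 0.3 in NO livers (SD, n = 7 and 8), with all 7 IH arrays above the NO mean and an adjusted p of 0.224. Psme1 and Psme2, which together form the interferon-induced cap, had log2 fold changes of 0.07 and -0.16 (adjusted p = 0.768 and 0.571), and Psme4, a cap of the nucleus and testis, had 0.00 (standard error 0.07).

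In adipose tissue, 40 members could be tested, and 6 were called higher and 8 lower after IH. All genes showed 17.6% called higher and 14.5% called lower of 8207 (32.1% in either direction), against 35% of the members, so the share of the members was near the background. Before adjustment, 12 of 40 had a p of 0.01 or less, against 29% of all genes. The median log2 fold change of the 40 was 0.02, against 0.11 over all genes, and 23 of 40 were above 0 (60.6% of all genes). The mean log2 intensity of the members averaged 9.97 ± 0.11 in IH and 10.07 ± 0.08 in NO adipose tissue (SD, n = 8 each). Without the 3 arrays with epididymal markers, 4 members were higher and 8 lower, against 31.3% of all genes called, and the calls on Psmb4 and Psmc3ip were lost (adjusted p = 0.122 and 0.103). The other 12 calls were the same genes.

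Macrophage markers (6 on the array) summed to between 867.6 and 1810.1 units in IH adipose tissue and between 1834.5 and 3674.8 in NO adipose tissue, and the groups did not overlap. Between 2 and 4 of them were detected on the arrays of either group, and 2 of 3 tested were called lower. B cell markers summed to between 4383.4 and 13804 in IH and between 1979.8 and 6250.5 in NO adipose tissue, with 1 or 2 of 4 detected. Of the 2 tested, 1 was called higher. Of the smooth muscle and fibroblast markers, 3 of 6 tested were higher after IH (Acta2, Myh11 and Col1a1; sums of 34193 to 65110.4 in IH and 35117 to 48595 in NO). Of the adipocyte markers, 2 of 7 were lower (Fabp4 and Retn), and of the mesothelial markers 1 was higher (Krt19) and 2 lower (Lrrn4 and Wt1) of 5. Among endothelial and hepatocyte markers 1 of 5 (Kdr) and 1 of 4 (Serpina1a) were lower. Over all genes, 17.6% were called higher and 14.5% lower. The part of these markers in the results was not tested.

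**Figure D2:**
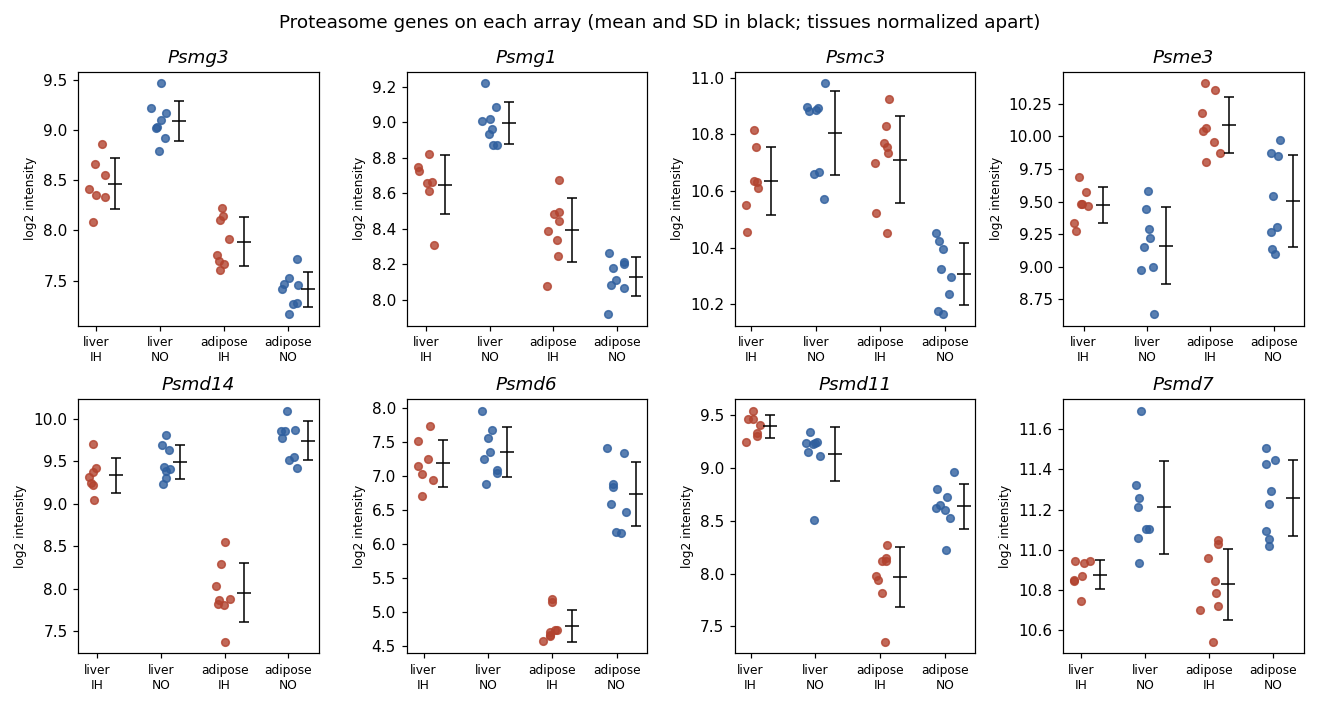
Log2 intensity of 8 proteasome genes on each array (points), by tissue and exposure, with the mean and SD in black; each tissue was normalized on its own. In liver every IH array of Psmg1 lies below every NO array, and in adipose tissue every IH array of Psmd14 and Psmd6 lies below, and every IH array of Psmc3 above, every NO array.

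In the lid, 4 of 7 genes were called lower and 0 higher after IH (14.5% and 17.6% of all genes). The median log2 fold change was -0.67, against 0.11 over all genes. Both the count and the median include Psmd6, which was kept through its NO arrays. Psmd14, the deubiquitinase, had a lowest, median and highest value of 7.38, 7.87 and 8.55 in IH adipose tissue, against 9.42, 9.82 and 10.1 in NO adipose tissue. No IH array reached the NO range, and the log2 fold change was -1.79 (standard error 0.15, adjusted p = 2.82e-08, exact permutation p = 0.000155, the smallest that 8 against 8 arrays can give). Psmd6, a structural gene of the lid, had 4.57, 4.72 and 5.18 in IH adipose tissue, against 6.16, 6.72 and 7.4 in NO adipose tissue. Its probe was detected on 1 of 8 IH arrays and on 8 of 8 NO arrays (log2 fold change -1.94, standard error 0.18, adjusted p = 1.54e-07). The 8 NO arrays alone met the filter of 8 arrays, so its p and its lack of overlap are descriptions. The fold change of Psmd6 sets the NO arrays against IH values that were mostly not above background, so its size is loose: it lay between -2.08 and -0.70 over the alternatives, nearest 0 without background correction. By the brightest probe, Psmd14 and Psmd6 were the 2 tested members with every IH array below every NO array, as were 8.7% of all genes. Dimmer kept probes of Psmb7, Psmd11, Psmd12 and Psmg2 did the same.

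Psmd11 had 7.36, 8.05 and 8.27 in IH adipose tissue, against 8.22, 8.63 and 8.96 in NO adipose tissue. All 8 IH arrays were under the NO mean, and it fell by 0.67 on the log2 scale (standard error 0.13, adjusted p = 0.000824). Psmd7 had 10.54, 10.81 and 11.05 in IH adipose tissue, against 11.02, 11.26 and 11.5 in NO adipose tissue, and fell by 0.43 (standard error 0.1, adjusted p = 0.00429). Its second kept probe had a log2 fold change of -0.28 and was not called (adjusted p = 0.157 from limma over all probes). On that probe 2 of 8 IH arrays lay above the NO mean. Of the other lid genes, Psmd12 had a log2 fold change of -0.30 (adjusted p = 0.12) and Psmd13 of 0.08 (adjusted p = 0.634), and Psmd8 is described with its values by array.

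Of the members with several kept probes in adipose tissue, 3 of 13 had probes whose log2 fold changes differed by more than 1, against 365 of 1984 genes (18.4%). In liver 0 of 13 did, against 13 of 1472 genes, though smaller differences in sign occurred there, as for Psmd7, Psmd10 and Psmd11. The second kept probe of Psmd11 had a log2 fold change of -2.61 and was detected on 0 of 8 IH arrays and 8 of 8 NO arrays, so it was at least 4.29-fold lower in IH (measured means of 4.78 and 7.39 in IH and NO). The second probe of Psmd12 read 5.25 ± 0.18 in IH and 7.68 ± 0.21 in NO adipose tissue (SD, n = 8 each), a log2 fold change of -2.43 beside -0.30 for the brighter probe. That of Psmg2 gave -1.17 (standard error 0.13) beside 0.06 (standard error 0.14). The 2 probes of Psmd6 ran together, at -1.94 and -1.32, while Psmd14 had 1 probe. Both probes of Psmd6 and the second of Psmd11 were kept through the NO arrays, being detected on 1, 1 and 0 of 8 IH arrays. Over the whole array, 171 of 25697 probes were detected on 0 IH and all 8 NO adipose arrays, and 10 the other way round. In liver these counts were 1 and 2.

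**Figure D3:**
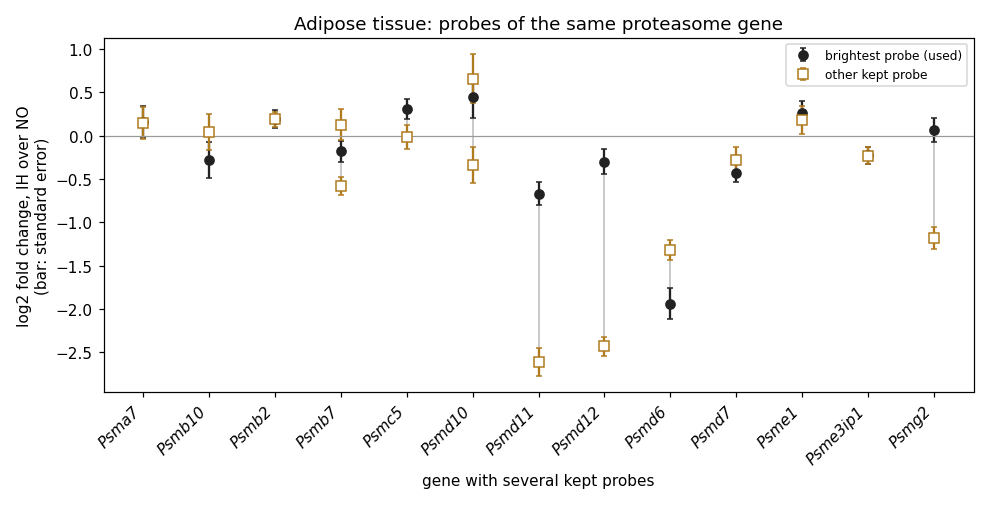
Adipose log2 fold change of IH over NO for each kept probe of the 13 proteasome genes with several probes (bars: standard errors). For Psmd11, Psmd12 and Psmg2 the second probe lies more than 1 below the brightest, which stood for the gene.

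In the base, Psmc3 and Psmc1 were called in opposite directions. Psmc3, an ATPase, had 10.45, 10.75 and 10.92 in IH adipose tissue, against 10.17, 10.31 and 10.45 in NO adipose tissue. Every IH array lay above every NO array, as for 2.23% of all genes, and it rose by 0.4 (standard error 0.09, adjusted p = 0.00166). Psmc1, another ATPase, averaged 9.86 ± 0.18 in IH and 10.19 ± 0.16 in NO adipose tissue (SD, n = 8 each) and fell by 0.33 (standard error 0.1, adjusted p = 0.0143). Without the arrays of chip 5 its log2 fold change was -0.14 (adjusted p = 0.445), and without chip 3 it was -0.26 (adjusted p = 0.0962). The other 3 ATPases tested had log2 fold changes between 0.02 and 0.31. The scaffold gene Psmd1 and the ubiquitin receptors Psmd2 and Psmd4 lay between -0.06 and 0.01 with 0 called, also at an unadjusted p under 0.05.

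In the core, Psma3 of the alpha ring and Psmb5 were called lower and Psmb4 of the beta ring higher. Psma3 averaged 12.72 ± 0.16 in IH and 13.15 ± 0.18 in NO adipose tissue (SD, n = 8 each; it fell by 0.43, adjusted p = 0.00324). Psmb5 had 7.18, 7.74 and 7.94 in IH adipose tissue, against 7.57, 8.02 and 8.31 in NO adipose tissue. It fell by 0.36 (standard error 0.13, adjusted p = 0.0367), with all 8 IH arrays under the NO mean. Psmb6 and Psmb7 had log2 fold changes of -0.13 and -0.18 (adjusted p = 0.427 and 0.269). The other kept probes of Psmb7 disagreed with each other: the dimmest read 9.58 ± 0.17 in IH and 10.16 ± 0.2 in NO adipose tissue (SD, n = 8 each), a log2 fold change of -0.58 with every IH array below every NO array (adjusted p = 0.000341 over all probes), and the third was at 0.13. All 4 structural beta genes lay above 0, between 0.17 and 0.34, and of these Psmb4 passed (log2 fold change 0.22, standard error 0.08, adjusted p = 0.042).

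Of the 3 chaperones of the core, Psmg3 and Psmg1 rose in adipose tissue after IH and Psmg2 had a log2 fold change of 0.06 (adjusted p = 0.762). Psmg3 had 7.6, 7.83 and 8.22 in IH adipose tissue, against 7.16, 7.44 and 7.72 in NO adipose tissue. All 8 IH arrays exceeded the NO mean, and it rose by 0.48 (standard error 0.11, adjusted p = 0.00403). Psmg1 had 8.08, 8.42 and 8.68 in IH adipose tissue, against 7.92, 8.15 and 8.27 in NO adipose tissue, with 7 of 8 IH arrays above the NO mean (log2 fold change 0.26, standard error 0.09, adjusted p = 0.0329). Psmd9, a chaperone of the base, was lower, at 5.07 ± 0.32 in IH and 5.81 ± 0.28 in NO adipose tissue (SD, n = 8 each; log2 fold change -0.74, adjusted p = 0.00101), near the detection limit with 3 of 8 IH and 7 of 8 NO arrays detected. Its other probe, outside the test, ran the other way: it read 5.38 ± 0.17 in IH and 4.9 ± 0.2 in NO adipose tissue (SD, n = 8 each), detected on 6 of 8 IH and 1 of 8 NO arrays, so the direction for Psmd9 differed between its probes. Psmd5 had a log2 fold change of 0.33 (adjusted p = 0.18).

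Psme3 was the activator called in adipose tissue, with 9.8, 10.05 and 10.4 in IH against 9.1, 9.42 and 9.97 in NO adipose tissue. It rose by 0.58 (standard error 0.15, adjusted p = 0.00612), and all 8 IH arrays were above the NO mean. Psme1, Psme2 and Psme4 had log2 fold changes of 0.26, -0.10 and 0.09 with adjusted p of 0.134, 0.604 and 0.447. Psmc3ip rose by 0.64 (standard error 0.2, adjusted p = 0.0226).

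The calls on Psmb4, Psmb5 and Psmg1 in adipose tissue were lost without single arrays. Without any one of 11 arrays for Psmb4 (IH 16, 19, 20, 21 and 22 and NO 2, 3, 4, 6, 7 and 8), the adjusted p was between 0.0524 and 0.0777. For Psmb5 it was between 0.0512 and 0.0727 without any one of 9 arrays (IH 17, 18 and 22 and NO 1, 3, 5, 6, 7 and 8). For Psmg1 it was between 0.0501 and 0.0677 without any one of 9 (IH 15, 18, 20, 21 and 22 and NO 1, 4, 6 and 8). With chip as a random block 11 members were called, and these 3 calls were lost too (adjusted p = 0.0665 for Psmb4, 0.0603 for Psmb5 and 0.0529 for Psmg1). Adjusting for the count of detected probes also left 11, without Psmb4 (adjusted p = 0.0857), Psmb5 (0.0642) and Psmc3ip (0.0733).

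On the brightest probe of Psmd10, the arrays with epididymal markers gave the 3 highest values. It read 11.45 in IH 19 and 10.35 in IH 16, against 10.27 in NO 4, while the other arrays lay between 9.36 and 9.89 in IH and between 9.19 and 9.59 in NO adipose tissue. Psmd10 had a log2 fold change of 0.45 with an adjusted p of 0.175. Its other kept probes had log2 fold changes of 0.66 and -0.34, with IH 19 the highest array on both, but IH 16 and NO 4 were not the next 2 on either. Psmb10 had its 2 lowest values in IH 19 (9.21) and IH 16 (9.83), with the other 6 IH arrays between 10.31 and 10.86 and the 8 NO arrays between 10.13 and 10.92 (adjusted p = 0.323). Psma7, in the alpha ring, read 12.38 in IH 19, and between 10.93 and 11.25 on the other IH arrays and 10.73 and 11.42 on the NO arrays.

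Members outside the test were few. Psma1 and Psma6 were detected on 0 of 31 arrays. Psmc6, an ATPase, was detected on 0 of 8 IH and 6 of 8 NO adipose arrays, so it was at least 1.32-fold lower in IH (measured means of 4.56 in IH and 5.69 in NO), with no test. In liver it was detected on 3 of 7 IH and 1 of 8 NO arrays, as was Psmd2. Psmc3ip was detected on 0 liver arrays.

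Whether the IH effect differed between the tissues was tested for 38 members in a fit of all 31 arrays. The difference, liver effect minus adipose effect, was called above 0 for 5 members and below 0 for 3, against 13.9% and 11.6% of 5986 genes. Psmg3 and Psmg1 had opposite effects: -0.62 in liver and 0.48 in adipose tissue for Psmg3 (difference -1.10, standard error 0.16, adjusted p = 2.69e-06), and -0.35 in liver and 0.27 in adipose tissue for Psmg1 (difference -0.61, standard error 0.12, adjusted p = 0.000173). Psmc3 differed the same way (difference -0.57, adjusted p = 0.000219). Psmd14 (1.65), Psmd6 (1.69), Psmd11 (0.93), Psmd9 (0.84) and Psma3 (0.39) had differences above 0. The adjusted p lay between 1.57e-08 for Psmd14 and 0.0175 for Psma3. The size for Psmd6 is loose here too, as its IH adipose values were mostly not above background. Psmd6 was kept in adipose tissue through its NO arrays, so its p is a description. The other probe of Psmd9, outside the test, ran the other way in adipose tissue. Its log2 fold change was 0.47 in adipose tissue and 0.02 in liver, each tissue normalized on its own. With chip as a random block the call on Psma3 was lost (difference 0.38, adjusted p = 0.0649). Psmd7 and Psme3 had differences of 0.09 and -0.27 (adjusted p = 0.67 and 0.318). Without the 3 arrays with epididymal markers, 9 of 38 members were called, 5 above and 4 below 0. Of all 5986 genes, 24.3% were called, 13.4% above and 10.8% below 0, so the share of the members was near the background.

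Under NO, 16 members were higher in liver than in adipose tissue and 5 lower, against 29.9% and 44% of 8654 genes, or 40% and 12.5% of the 40 members. The 16 include Psmd2 (difference 0.51, adjusted p = 0.00446), detected on 1 of 8 NO liver and 4 of 8 NO adipose arrays. That call rests on liver signals mostly not above background. The median difference, liver minus adipose tissue, was 0.09 over 40 members and -0.22 over all genes. The core chaperones led, with all 3 higher in liver. Psmg3 averaged 9.1 ± 0.2 in NO liver and 7.39 ± 0.18 in NO adipose tissue (SD, n = 8 each; difference 1.70, adjusted p = 2.02e-14), Psmg1 9 ± 0.12 in NO liver and 8.12 ± 0.11 in NO adipose tissue (difference 0.89, adjusted p = 7.67e-11), and Psmg2 9.58 ± 0.22 in NO liver and 8.81 ± 0.21 in NO adipose tissue (difference 0.77, adjusted p = 1.03e-05). Psmd9 (difference 1.24) and Psmd6 (0.68) completed the 5 largest.

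The 5 members lower in NO liver were Psmc3ip, Psma3, Psme3, Psmd4 and Psma2. The call on Psmc3ip set 8 of 8 detected adipose arrays against 0 of 8 detected liver arrays. Its fold has no bound above 1 under NO, so no size is given, and under IH adipose tissue was at least 1.59-fold higher (measured means of 4.85 in IH liver and 6.87 in IH adipose tissue). The other 4 lay between -0.41 for Psma3 (adjusted p = 0.000103) and -0.29 for Psma2 (adjusted p = 0.000121). The call on Psmd4 (adjusted p = 0.0469) was lost in 22 of 42 alternatives, 17 of them single arrays left out, and that on Psme3 (adjusted p = 0.0284) in 8 of 42, 6 of them single arrays. The adjusted p reached 0.137 for Psmd4 and 0.0792 for Psme3. The catalytic genes had differences of 0.38 for Psmb5 (adjusted p = 0.0322), 0.19 for Psmb6 and -0.04 for Psmb7.

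Under IH, 15 members were higher in liver and 10 lower, against 31.8% and 46.5% of all genes. The 15 again include Psmd2 (difference 0.88), detected on 3 of 7 IH liver and 6 of 8 IH adipose arrays. Psmg3 had a difference of 0.60 (standard error 0.12) under IH and Psmg1 of 0.27 (standard error 0.09). Psmd14 had 1.40 (standard error 0.14, adjusted p = 8.04e-11) under IH, against -0.25 (standard error 0.13, adjusted p = 0.0907) under NO. Without the 3 adipose arrays with epididymal markers, 24 of 40 members were called under IH and 19 under NO. Of all 8654 genes, 77.7% were called under IH and 74.4% under NO on these arrays.

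**Figure D4:**
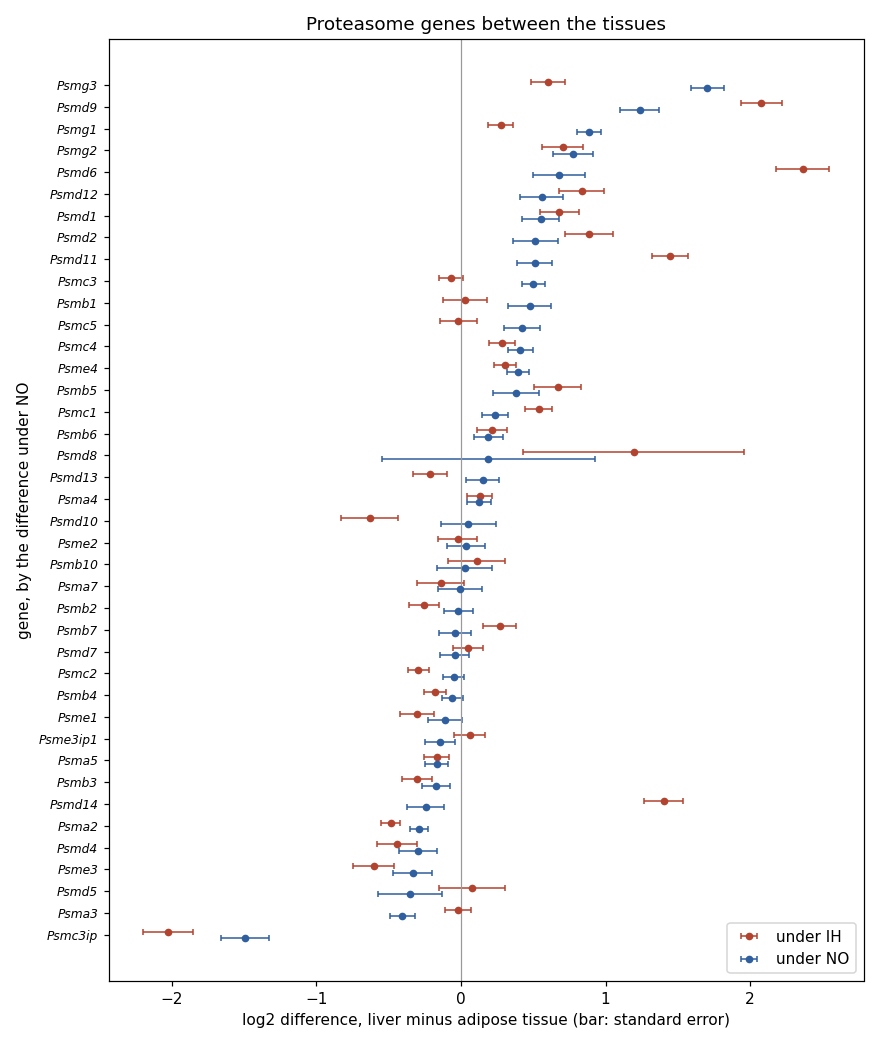
Log2 difference of liver minus adipose tissue for 40 proteasome genes under IH and under NO, ordered by the difference under NO, with standard errors as bars. Psmg3 leads under NO at 1.70, and Psmd14 lies at 1.40 under IH and -0.25 under NO. The values of Psmc3ip, detected on 0 liver arrays, are no measured size.

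Psmd8, a lid gene, had values at separate levels within each group. In liver it read 8.81 and 8.09 in IH 16 and IH 17 and between 10.46 and 10.71 in the other 5 IH arrays, and 8.83 and 8.4 in NO 4 and NO 8 and between 10.46 and 10.81 in the other 6 NO arrays. In adipose tissue it read 6.36, 5.47 and 6.43 in IH 15, 16 and 17 and between 10.22 and 10.59 in the other 5 IH arrays, and 7.62 and 7.48 in NO 4 and NO 8 and between 10.6 and 10.96 in the other 6 NO arrays. The low arrays carried the same replicate numbers in both tissues (IH 15 has no liver array). The log2 fold change was -0.18 (standard error 0.47, adjusted p = 0.89) in liver and -1.18 (standard error 0.88, adjusted p = 0.324) in adipose tissue. Whether a number stands for 1 mouse in both tissues is not given in the labels.

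**Figure D5:**
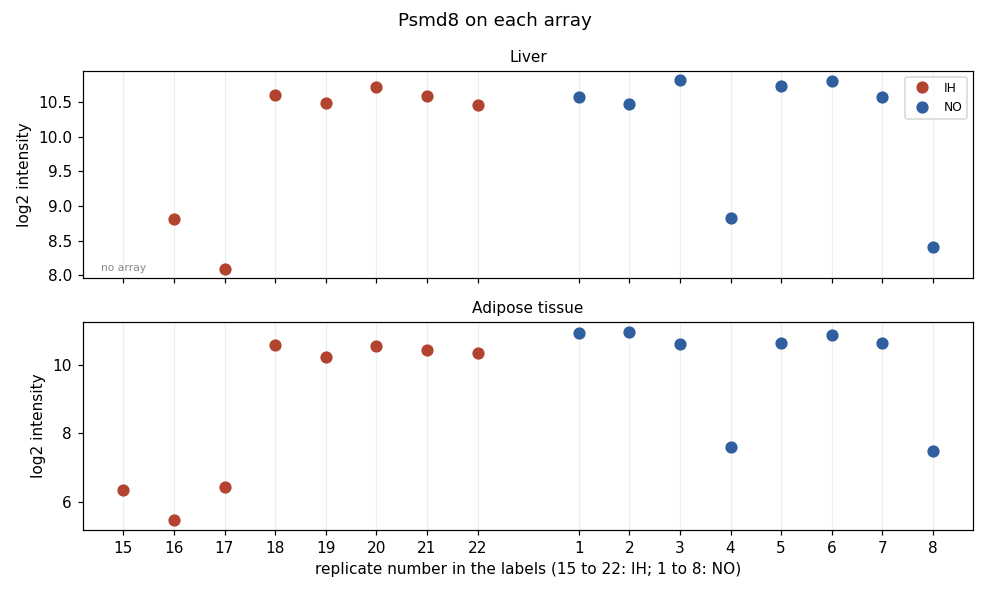
Log2 intensity of Psmd8 on each array of liver (top) and adipose tissue (bottom) against the replicate number in the labels. Low values fall on numbers 16, 17, 4 and 8 in liver and on 15, 16, 17, 4 and 8 in adipose tissue.

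How far the members varied together was described within the groups. After each group's mean was taken off, the median correlation over 703 pairs of members was -0.00 in liver (15 arrays), against 0.00 over all genes, and 0.06 over 780 pairs in adipose tissue (16 arrays), against 0.01 over all genes. The pairs share arrays, chips and normalization. Of the pairs, 7.97% in liver and 10.4% in adipose tissue were over 0.5, against 7.06% and 9.51% of all pairs of genes. The highest was Psmd4 with Psma5 in liver (0.83) and Psmd4 with Psmd7 in adipose tissue (0.87).

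Other genes of the pathway were read from a list of proteasome partners with other names. In liver 0 of 6 tested were called, also at an unadjusted p under 0.05, and in adipose tissue 0 were higher and 4 of 6 lower after IH (17.6% and 14.5% of all genes). Usp14, a deubiquitinase bound to the base, averaged 5.36 ± 0.3 in IH and 7.36 ± 0.31 in NO adipose tissue (SD, n = 8 each) and fell by 2.00 (adjusted p = 1.04e-08). Ecpas, an adaptor of the cap, fell by 1.39, Sem1, a small subunit of the lid, by 0.91, and Uchl5, a further deubiquitinase, by 0.63. The excluded Psmb9 fell by 0.71 (adjusted p = 0.0178), while Psmb8 had a log2 fold change of -0.09 (adjusted p = 0.806). In liver Psmb9 had -0.04 (adjusted p = 0.941), and Psmb8 was not tested.

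Of the regulators of proteasome genes, Nfe2l1, which drives their recovery when the protease is inhibited, averaged 12.38 ± 0.3 in IH and 12.85 ± 0.2 in NO adipose tissue (SD, n = 8 each) and fell by 0.47 (adjusted p = 0.011). In liver it averaged 10.86 ± 0.23 in IH and 10.89 ± 0.15 in NO (SD, n = 7 and 8; adjusted p = 0.934). Nfe2l2, a regulator of antioxidant genes, had log2 fold changes of 0.54 in liver (adjusted p = 0.397) and -0.25 in adipose tissue (adjusted p = 0.291). Among 6 shuttles to the proteasome tested in adipose tissue, 2 were called higher, where 17.6% of all genes were. These, Ubqln4 and Nploc4, rose by 0.57 and 0.56. In liver 0 of 6 were called (1, Zfand2a, at an unadjusted p under 0.05). Of 8 partners of class I presentation tested in adipose tissue, 0 were called higher and 2 lower, where 14.5% of all genes were lower. The median log2 fold change of these 8 was -0.01, against 0.11 over all genes. The class I heavy chains H2-K1 and H2-D1, which present peptides made by the proteasome, fell by 3.01 and fell by 3.24 in adipose tissue (2 of 8 partners tested called, both lower), against -0.01 and -0.11 in liver, where 0 of 6 were called, also at an unadjusted p under 0.05.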

How the data were processed

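Gene expression was measured on 31 bead arrays of 25697 probes, with GenomeStudio named in the submitters' processing notes. The authors deposited a linear intensity and a detection p-value for each probe and array. Although that intensity table is labelled as not normalized, its arrays share nearly 1 distribution, as after a joint quantile normalization, so that some differences in total signal may already be gone. The authors also deposited an intensity table quantile normalized within each tissue, used as an alternative.

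Each tissue was background-corrected and quantile normalized with neqc (limma 3.58.1, R 4.3.3, offset 16), which gives log2 values. Probes with a detection p under 0.01 on at least 7 liver or 8 adipose arrays were kept (8879 and 11486), and the kept probe of highest mean stood for its gene. Both tissues were normalized together for the contrasts between them. Groups were compared with lmFit and eBayes of limma, two-sided, with Benjamini-Hochberg adjustment over all genes kept, checked on simulated data. The study's SAM test was not run, and limma stands in for it. Exact permutation tests of single genes ran over 6435 liver or 12870 adipose splits. A probe detected on no array of a group gives a bound. The brighter group's mean is then set against a floor, the larger of the probe's own signal and the lowest detected signal on each array.

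The members, the gene lists and the alternatives were chosen with earlier results of these data known. Named genes are members called in a comparison of exposures or their difference, the 3 of smallest p in each direction, those whose groups did not overlap, the 5 with the largest tissue difference in each direction under NO, and the catalytic, activator and chaperone genes. Psmd8, Psma7, Zfand2a and the second probes were singled out after their values were seen, and other members are named to complete a group. The number of arrays limits the precision.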

Additional observations from a re-analysis of the deposited data

Results flagged for a closer look

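Of 98 groups of arrays of the named proteasome genes, 8 held 1 array far from the others by Dixon's test, where chance flags about 1 in 20. In adipose tissue these were Psmd10 in IH 19 (11.45, the others 9.36 to 10.35) and in NO 4 (10.27, the others 9.19 to 9.59), Psmb7 in IH 17 (10.55, the others 11.06 to 11.43) and Psmc3ip in NO 5 (7.05, the others 5.93 to 6.32). In liver they were Psmg1 in IH 20 (8.31, the others 8.62 to 8.82), Psma2 in NO 2 (12.6, the others 12.73 to 12.84), Psmd11 in NO 3 (8.51, the others 9.11 to 9.34) and Psme2 in NO 1 (8.58, the others 8.92 to 9.15).

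The IH effect in liver minus that in adipose tissue differed by limma's test for 8 members, given here on the log2 scale. It was 1.65 for Psmd14, 1.69 for Psmd6, 0.93 for Psmd11, 0.84 for Psmd9 and 0.39 for Psma3. For Psmg3, Psmg1 and Psmc3 it was -1.10, -0.61 and -0.57. Psmd6 was kept in adipose tissue through its NO arrays, so its test is a description. The direction for Psmd9 in adipose tissue differed between its probes.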

How the results depend on the processing

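In liver, 0 proteasome genes were called with chip as a random block, after adjusting for how many probes were detected, and without the arrays of chip 2 or of chip 3, and 3 with array weights, against 1 as reported. At an unadjusted p of 0.01 or less, 1 remained without chip 3, against 4. Leaving out each array gave 0 to 2 called, 2 to 5 at the unadjusted p and a median log2 fold change between -0.08 and -0.03. In adipose tissue 8 genes were called without the arrays of chip 3 or of chip 4 and 9 without chip 5, against 14, with 7 at the unadjusted p without chip 3 or chip 5, against 12. Leaving out each array gave 11 to 14 called, 10 to 13 at the unadjusted p and a median between 0.01 and 0.06, which turned to -0.04 without chip 4. Of the 14 adipose genes called, 6 (Psmd14, Psmd6, Psmd11, Psmd7, Psmc3 and Psmg3) were called under every alternative that tested them with 1 value per gene. Of the 14, 0 reversed under these alternatives. With every kept probe on its own, the second probe of Psmd7 was not called (log2 fold change -0.28, adjusted p = 0.157 from limma over all probes). Psmd6 was kept through its NO arrays, so its calls are read as descriptions. For the difference of the IH effect the alternatives gave 6 to 11 genes, and leaving out each array 8 to 10. Between the tissues they gave 17 to 22 under NO and 21 to 27 under IH, with 18 to 22 and 23 to 26 when each array was left out. The median over all adipose genes lay between 0.07 and 0.11 over the scalings tried.

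Arrays of 1 number in both tissues had correlations of their deviations between -0.05 and 0.33, with 9 of 15 pairs over 0.1. For NO 4, 5 and 7 and IH 16, 18, 20, 21 and 22 the correlation was best with their own number. Psmd8 was also low on the same numbers in both tissues. The labels do not say whether a number is 1 mouse, so the main fits left the arrays unpaired and blocks on the number were alternatives. A random replicate block gave 8 genes for the difference of the IH effect, 21 between tissues under NO and 25 under IH. A fixed replicate block gave 19 and 21.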
